A study of Drosophila melanogaster with 12 samples.

Results

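Of the 17612 genes counted in heads of adult *Drosophila*, 781 have exons that together cover the whole gene from its first to its last base, so that no base of the gene is intron in every transcript, and are at least 1500 bases long. These intronless genes were defined by the gene table and by name. The exon length had to equal the span, and genes of the mitochondrion, the rDNA, chromosome 4 and the end of the X chromosome next to the centromere were left out. A further 5 genes were dropped by name, *Hsp68*, 2 *Hsp70* genes, *SoxN* and *slp1*. Another 4 *Hsp70* genes, which are near-identical copies, remain among the 781, and their values are uncertain and not given. Before the exclusions by place and name 802 genes met both conditions. The rule itself uses no measured value, but the class was chosen with earlier results of these data known.

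The label holds in part. Of the 781 genes, 512 have 1 annotated exon and 175 have several exon entries that all overlap, while 94 carry at least 2 exons that do not overlap each other, so that some of their transcripts could still be spliced. Protein-coding genes made up 614, long noncoding RNAs (lncRNAs) 104 and antisense RNAs 51, with 6 pseudogenes and 6 of other types. The median length was 2054 bases, the longest gene had 21710, and 655 were under 3000. They were spread over all chromosome arms, at 3.93% of the genes of 2L up to 4.89% of those of 2R and 5.31% of those of the Y. In all 60 of them share exon bases with another gene on the same strand.

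Caper is the fly counterpart of human RBM39, an RNA-binding protein of nucleus and cytoplasm that works with the U2AF factors at 3′ splice sites. Splicing removes introns from a pre-mRNA and leaves exon junction proteins on the spliced mRNA, which help it leave the nucleus. Transcripts that hold no intron pass through none of these steps, and many intronless genes encode transcription factors, signalling proteins or products that a cell makes quickly. RNA immunoprecipitation (RIP) measures RNA that comes down with a protein, whether it is bound directly or through other proteins.

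All 12 libraries came from flies of the genotype Hsp70Gal4 x UASCaperFlag, in which a heat shock promoter drives Gal4 and thereby FLAG-tagged Caper, and which were kept for 2 h at 37°C and then overnight at 30°C. From these heads 3 IPs were made with a rabbit antibody to Caper (replicates 1 to 3) and 3 with a FLAG antibody (replicates 4 to 6), and each IP has its own input. The promoter is not limited to neurons or to a tissue of the head, the flies keep their own *caper* gene, and no control IP is analysed here. The labels do not say whether replicates are separate groups of flies, so the p-values measure the spread between these samples, which may in part be technical.

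Libraries held 9615414 to 34264177 counts. Between 22.7% and 26.2% of alignments were assigned to genes in the inputs and between 53.7% and 72.4% in the IPs. Markers of head tissues were present in all 6 inputs, where 8 neuronal genes summed to 923 to 1005 counts scaled to library size (CPM) per kb and 9 photoreceptor genes to 17401 to 21857. Of the testis markers 4 of 10 lay under 1 CPM per kb in the mean of the inputs, and of the ovary markers 8 of 8. The testis markers summed to 1.43 to 64.9 CPM per kb over the 6 inputs, so their level differed widely between inputs. The ovary markers summed to 1.08 to 3.52. The intronless genes took 2.91% to 4.23% of the counts of an input and 3.10% to 3.78% of those of an IP. One of them, *Arc1*, held 27.6% to 43.6% of these counts in the inputs and 14% to 21.5% in the IPs.

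After the filter on low counts, 506 intronless genes could be tested with Caper and 466 with FLAG, 463 of them in both. The remaining 272 were tested in neither. Of these 44 had no count in any library and none had more than 86 in one library. The genes tested in the Caper IP lay at a median of 4.55 CPM per kb in the inputs, against 11.2 for intron-containing genes of the same minimum length, so the intronless genes were at a lower level.

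The first comparison asked whether transcripts without introns came down with Caper less than, as much as, or more than other transcripts. In the Caper IP the median log2 fold change over input was 0.17 for the intronless genes, 0.03 for all genes tested and 0.06 for intron-containing genes of 1500 bases or more. In the FLAG IP the 3 medians were 0.13, 0.00 and 0.09. Each of the 6 IP and input pairs gave the intronless genes a positive median, from 0.15 to 0.20 with the Caper antibody and from 0.11 to 0.16 with the FLAG antibody. These are descriptions of lists and were not tested. For levels in the inputs, fewer cells of a type and less RNA per cell cannot be told apart in heads of mixed tissues. For the fold changes, no control IP is analysed, so recovery that does not depend on Caper was not tested.

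Genes with few introns had similar medians. Intron-containing genes of 1500 bases or more that have 2 exon blocks had a median of 0.18 with Caper and 0.10 with FLAG, and those with 3 to 4 blocks had 0.17 and 0.13. The medians were lower with more blocks in the Caper IP, at 0.07 for 5 to 8 and at -0.10 for 9 or more. In the FLAG IP the same classes had 0.10 and 0.04. Genes of 1500 bases or more of which over 90% of the span is intron had medians of -0.15 and -0.14. The number of blocks moves with length and level, since genes with 9 or more had a median length of 5397 bases and 17.6 CPM per kb in the inputs where the intronless genes tested had 2128.5 bases.

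**Figure D1:**
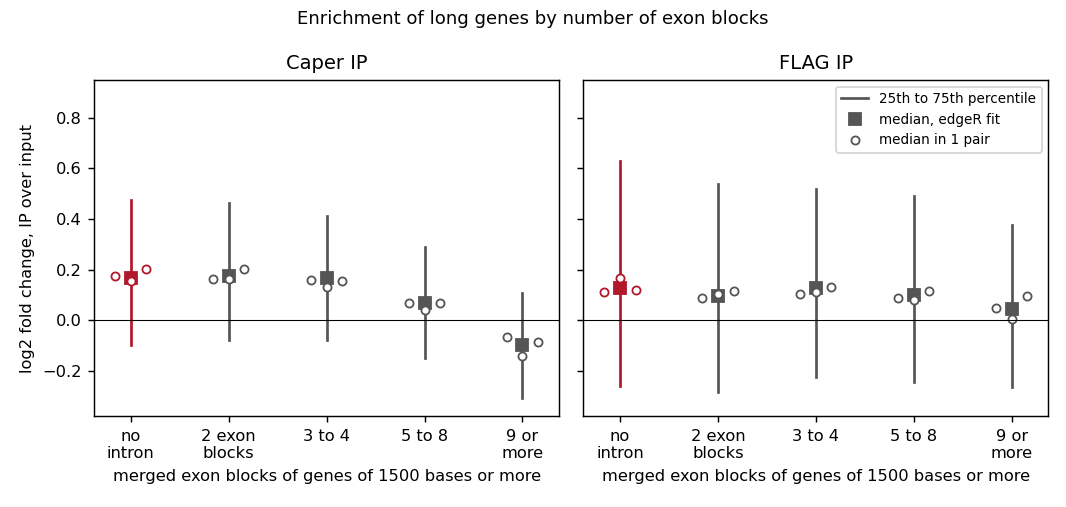
Log2 fold change of IP over input (vertical axis) for genes of 1500 bases or more by the number of merged exon blocks (horizontal axis), in the Caper IP (left) and the FLAG IP (right). Squares are medians of the edgeR fit, open circles the medians in each of the 3 pairs and bars the 25th to 75th percentiles; the intronless genes (red) sit at 0.17 and 0.13, beside the genes with 2 blocks at 0.18 and 0.10.

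Medians also differed with length. Intronless genes of under 1500 bases, which are not part of the 781, had medians of -0.08 with Caper and -0.21 with FLAG. Among the 781, those of 1500 to under 2000 bases had 0.18 and 0.03, those of 2000 to under 3000 bases 0.10 and 0.12, and those of 3000 bases or more 0.26 and 0.39. Across the tested intronless genes the rank correlation of length with log2 fold change was 0.03 in the Caper IP (506 genes) and 0.19 in the FLAG IP (466 genes), values that describe genes from the same libraries and are no test. At the border of the class, *CG31815* (1500 bases) had log2 fold changes of 0.07 and -0.24 and *CG11109* (1503 bases) -0.22 and -0.34, whereas *Gadd45*, just outside with 1495 bases, had 1.51 and 1.74.

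Each tested intronless gene was then set beside the intron-containing genes whose length and mean input level were both within 25% of its own (the larger at most 25% above the smaller). At least 5 such neighbours were found for 496 genes in the Caper IP, with a median of 152 neighbours each, and for 458 genes in the FLAG IP. The median difference in log2 fold change between an intronless gene and its neighbours was 0.05 in the Caper IP, with quartiles of -0.21 and 0.35, and 266 genes (53.6%) lay above their neighbours. In the FLAG IP it was 0.01, with quartiles of -0.37 and 0.48, and 232 genes (50.7%) lay above. By pair it was 0.06, 0.06 and 0.07 in the Caper IP and 0.01, 0.05 and -0.0015 in the FLAG IP.

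The difference to like genes was thus small beside the spread among the intronless genes themselves, and with the FLAG antibody its sign differed between pairs. With neighbours limited to genes whose span is at most 2 times their length the FLAG value was -0.02, so no direction was given to it. Genes of 3000 bases or more lay above their neighbours by a median of 0.25 (88 genes) and 0.18 (90 genes) in the Caper and FLAG IP, those of 2000 to under 3000 bases by -0.03 and 0.00, and those of 1500 to under 2000 bases by 0.05 and -0.05. The most strongly expressed of 3 equal parts of the tested genes lay above by 0.20 with Caper and 0.10 with FLAG, the middle part by 0.00 and -0.08, and the lowest by -0.02 and 0.06. Neighbours were not matched on gene type. Protein-coding intronless genes lay above by 0.02 with Caper (422 genes) and -0.01 with FLAG (384 genes). The lncRNAs and antisense RNAs lay above by 0.26 in each IP (70 genes in each).

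**Figure D2:**
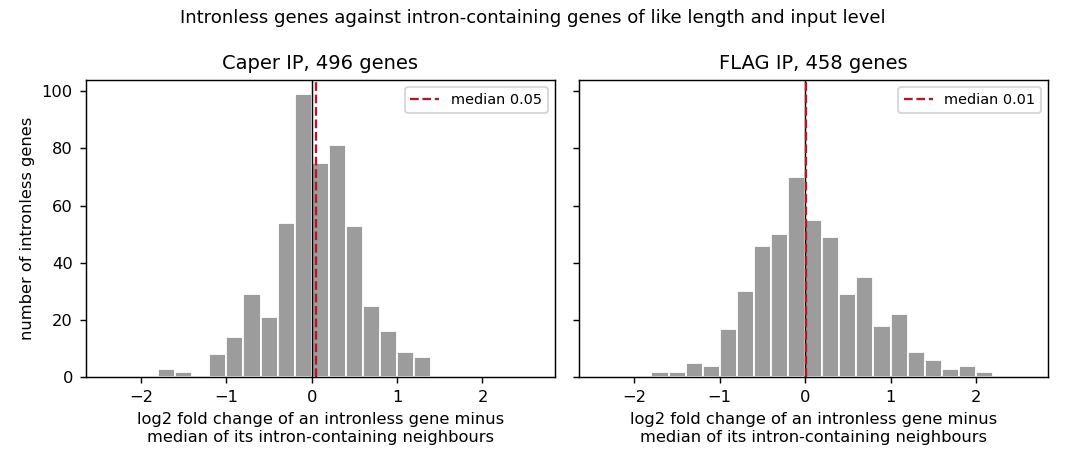
Number of intronless genes (vertical axis) by the log2 fold change of the gene minus the median of its intron-containing neighbours of like length and input level (horizontal axis). The dashed lines mark the medians, 0.05 over 496 genes in the Caper IP and 0.01 over 458 genes in the FLAG IP, close to the solid line at 0.

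Gene by gene, edgeR called 57 of the 506 tested intronless genes higher in the Caper IP than in its inputs (11.3%), where 6.33% of all genes tested were called, and 15 lower (2.96%), where 7.53% of all genes were. In the FLAG IP 105 of 466 were higher (22.5%) and 63 lower (13.5%), beside 19.5% and 20.8% of all genes. In the Caper IP these shares were close to those of intron-containing genes of 1500 bases or more with 2 exon blocks (10.52% higher and 2.19% lower) and with 3 to 4 blocks (11.2% and 2.83%). With FLAG their share of higher calls was near the background. With scaling by library size only, which shifted the median of all genes by 0.15 on the log2 scale in the Caper IP, 113 were higher and 11 lower there (91.1% of the calls higher against 79.2%). All intron-containing genes of 1500 bases or more had 7.47% higher and 6.51% lower in the Caper IP and 24.7% and 15.9% in the FLAG IP. All 3 IPs lay above all 3 inputs for 138 intronless genes (27.3%) in the Caper IP, beside 19.1% of all genes, and for 130 (27.9%) in the FLAG IP, beside 26%. All 3 lay below for 35 (6.92%, beside 17.5%) and 87 (18.7%, beside 27.3%).

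These counts leaned on single libraries in the Caper IP. Without input 1, 2 or 3 the Caper calls of intronless genes were 5, 1 and 26 higher and 4, 1 and 7 lower, and without IP 1, 2 or 3 they were 90, 11 and 22 higher and 26, 4 and 5 lower. Over all genes the higher calls moved in the same direction, from 682 to 5 without input 2 and to 1159 without IP 1. In the FLAG IP the counts stayed at 69 to 97 higher and 45 to 64 lower, with the fewest higher calls without input 6. Of the 32 genes named here that were called in the Caper IP, 27, 31 and 20 lost the call without input 1, 2 or 3 and 1, 27 and 19 without IP 1, 2 or 3. Of 40 named and called in the FLAG IP, at most 9 did, without input 6.

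Libraries that carry 1 number deviated together in each pair, least in Caper replicate 2 (a correlation of 0.152). With that number as a block the counts of intronless genes were 131 higher and 24 lower in the Caper IP, beside 15.8% and 14.8% of all genes, and 154 higher and 100 lower in the FLAG IP, beside 29.6% and 29.5%. The blocked fit therefore called 25.9% of the tested intronless genes higher with Caper and 33% with FLAG.

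Higher in both IPs were 38 of the 463 genes tested in both (8.21%, beside 5.28% of all genes), and lower in both were 14 (3.02%, beside 6.52%). Without Caper input 1, 2 or 3 these counts were 5, 1 and 23 and 4, 1 and 7, and without Caper IP 1, 2 or 3 they were 56, 11 and 22 and 15, 4 and 5. With the block they were 95 and 24, where 13.2% of all genes were called in each direction. A further 65 were higher and 48 lower in the FLAG IP alone (14.04% and 10.4%, beside 14.3% and 14.5% of all genes), 18 higher and 1 lower in the Caper IP alone (3.89% and 0.216%, beside 1.29% and 1.27%), and 278 were called in neither. The calls were opposite for 1 gene, *CG13631*, which was higher with Caper and lower with FLAG (beside 0.00966% of all genes), and 0 genes had the reverse calls (beside 0.0193%). With the block 3 genes were higher with Caper and lower with FLAG (beside 0.145%).

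**Figure D3:**
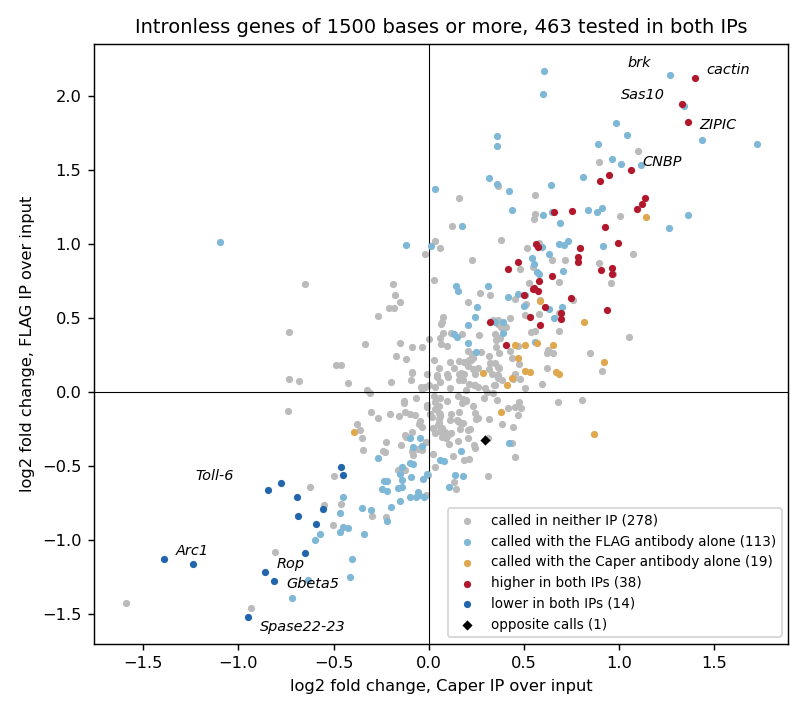
Log2 fold change in the Caper IP (horizontal axis) against that in the FLAG IP (vertical axis) for the 463 intronless genes tested in both, coloured by the edgeR calls. The 38 genes higher in both IPs reach *cactin* at 1.40 and 2.12, and the 14 lower in both reach *Arc1* at -1.39 and -1.13.

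The gene *cactin* (FBgn0031114, chromosome X, 20424069 to 20426402, plus strand, 2334 exon bases) had the largest called increase in the Caper IP. It encodes a conserved nuclear protein found in spliceosomes that also acts in the Toll pathway. Its level was 90.9, 92.9 and 83.3 CPM in the Caper inputs and 360.3, 209.9 and 135 CPM in the Caper IPs. In the FLAG inputs it was 90.9, 129 and 89.0 CPM and in the FLAG IPs 277, 679 and 392 CPM. Every IP lay above every input of its antibody, and the IPs spread far more than the inputs. It was higher with Caper (log2 fold change 1.40 ± 0.34 SE, adjusted p = 0.0412, up to 0.164 without input replicate 2) and with FLAG (log2 fold change 2.12 ± 0.33 SE, adjusted p = 0.00248).

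A few other intronless genes with roles in splicing are described next, picked with their calls known, so that their number says nothing of splicing genes as a group. *U4-U6-60K* (FBgn0036733, chromosome 3L, 17511855 to 17513912, minus strand, 2058 exon bases), a protein of the U4/U6 small nuclear ribonucleoprotein, went from 20.03, 23.8 and 34.5 CPM in the Caper inputs to 42.8, 52.3 and 57.6 CPM in the IPs, and from 28.8, 25.8 and 22 to 49.0, 41.4 and 43.0 CPM with FLAG. Neither pair of groups overlapped (log2 fold change 0.96 ± 0.22 SE, adjusted p = 0.0367, up to 0.183 without input replicate 2 for Caper and log2 fold change 0.80 ± 0.13 SE, adjusted p = 0.00279 for FLAG). *CG7564* encodes a Luc7 family protein, a family that works with the U1 particle, and was higher in both IPs (log2 fold change 0.66 ± 0.15 SE, adjusted p = 0.0383, up to 0.161 without input replicate 2 for Caper and log2 fold change 1.22 ± 0.13 SE, adjusted p = 0.000544 for FLAG). It is one of the genes with separate exons.

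The gene *noi*, which encodes a subunit of the SF3a complex of the U2 particle, was higher in the Caper IP (log2 fold change 0.44 ± 0.11 SE, adjusted p = 0.0445, up to 0.179 without input replicate 2) and had a log2 fold change of 0.10 ± 0.12 SE (adjusted p = 0.553) in the FLAG IP. *Rsf1*, an SR-like protein that represses splicing, went the other way. It had 81.7, 82.1 and 81.3 CPM in the Caper inputs and 62.0, 56.1 and 59.8 CPM in the IPs, and 72.4, 80.9 and 76.0 against 53.5, 58.3 and 49.8 CPM with FLAG. The groups did not overlap and it was lower in both (log2 fold change -0.46 ± 0.07 SE, adjusted p = 0.0146, up to 0.094 without input replicate 2 for Caper and log2 fold change -0.51 ± 0.09 SE, adjusted p = 0.00485 for FLAG).

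A list of 23 genes of the nucleolus, where ribosomal RNA is made and trimmed, held 3 of the 781 genes. All 3, *Sas10*, *Nnp-1* and *wcd*, were higher in both IPs. Of the whole list of 23 genes 7 were higher and none lower in the Caper IP, beside 6.33% and 7.53% of all genes tested. In the FLAG IP 13 were higher and 2 lower, beside 19.5% and 20.8%. The list was not tested as a group. *Sas10* (FBgn0029755, chromosome X, 5317409 to 5319071, plus strand, 1663 exon bases), a part of the particle that processes the small subunit RNA, had 21.2, 16.4 and 16.8 CPM in the Caper inputs and 65.8, 40.1 and 30.7 CPM in the IPs. With FLAG it had 18.5, 20.7 and 17.4 and 56.4, 100.3 and 62.1 CPM. The IPs lay above the inputs throughout (log2 fold change 1.33 ± 0.29 SE, adjusted p = 0.0328, up to 0.15 without input replicate 2 for Caper and log2 fold change 1.95 ± 0.23 SE, adjusted p = 0.000834 for FLAG).

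The ribosome biogenesis factor *wcd* was higher with Caper (log2 fold change 0.96 ± 0.22 SE, adjusted p = 0.0344, up to 0.114 without input replicate 1) and with FLAG (log2 fold change 0.84 ± 0.15 SE, adjusted p = 0.00486). So was *Nnp-1*, with Caper (log2 fold change 0.79 ± 0.17 SE, adjusted p = 0.0297, up to 0.121 without input replicate 2) and with FLAG (log2 fold change 0.97 ± 0.19 SE, adjusted p = 0.00636). Against intron-containing genes of like length and level the 3 genes lay 1.18, 0.83 and 0.71 higher on the log2 scale for *Sas10*, *wcd* and *Nnp-1* in the Caper IP.

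*ZIPIC* (FBgn0039740, chromosome 3R, 30035240 to 30036870, minus strand, 1631 exon bases), a zinc finger protein of insulator elements, had 11.6, 14.2 and 12.7 CPM in the Caper inputs and 42.6, 29.5 and 26.6 CPM in the IPs, and 13.9, 13 and 12.6 against 36.8, 60.5 and 42.8 CPM with FLAG. Its groups did not overlap (log2 fold change 1.36 ± 0.20 SE, adjusted p = 0.0116, up to 0.0746 without input replicate 2 for Caper and log2 fold change 1.82 ± 0.19 SE, adjusted p = 0.000555 for FLAG). The gene *mof* (FBgn0014340, chromosome X, 5873840 to 5876853, minus strand, 3014 exon bases), the histone acetyltransferase of the dosage compensation complex, had 18.3, 21.7 and 24.6 CPM and 35.1, 37.6 and 36.2 CPM in the Caper inputs and IPs and 19.7, 18.9 and 18.6 and 43.7, 47.3 and 42.6 CPM in those of FLAG. All IPs exceeded all inputs (log2 fold change 0.75 ± 0.12 SE, adjusted p = 0.0152, up to 0.111 without input replicate 2 for Caper and log2 fold change 1.23 ± 0.09 SE, adjusted p = 0.00019 for FLAG). *ZIPIC* and *mof* belong to a list of 13 intronless genes of chromatin and transcription regulators. Of the 13, 5 were higher and none lower in the Caper IP, beside 6.33% and 7.53% of all genes. In the FLAG IP 7 were higher and 1 lower, beside 19.5% and 20.8%. Their log2 fold changes ran from -0.42 to 1.36 and from -0.92 to 1.82, and the list was not tested as a group.

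The gene *brk*, the repressor of targets of the Dpp signal, was higher in the FLAG IP. It had 36.8, 62.3 and 28.9 CPM in the FLAG inputs and 108, 352 and 108 CPM in the IPs. The IPs stood above the inputs, and 1 of them stood far above the others (log2 fold change 2.15 ± 0.53 SE, adjusted p = 0.0153, up to 0.0634 without input replicate 6). In the Caper IP it had a log2 fold change of 1.27 ± 0.41 SE (adjusted p = 0.0914, or 0.0105 in the blocked fit). *CG11417* was also higher in the FLAG IP (log2 fold change 1.93 ± 0.37 SE, adjusted p = 0.00564) and had a log2 fold change of 1.34 ± 0.41 SE (adjusted p = 0.0775, or 0.0143 in the blocked fit, and 0.0253 without IP replicate 1) in the Caper IP.

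The lists of developmental transcription factors held few of the 781 genes, 2 of 25 bHLH genes, 4 of 15 forkhead genes and 2 of 4 Snail family genes. Intronless genes of under 1500 bases are not counted here. The lists also leave out *SoxN* and *slp1*, which were dropped by name. Of the 4 forkhead genes of the class, *slp2* was higher in the Caper IP (log2 fold change 0.50 ± 0.10 SE, adjusted p = 0.0222, up to 0.113 without input replicate 2) and had a log2 fold change of 0.32 ± 0.14 SE (adjusted p = 0.105, or 0.0229 in the blocked fit, and 0.0473 without input replicate 4) in the FLAG IP. The gene *fkh* was higher in the FLAG IP (log2 fold change 0.68 ± 0.23 SE, adjusted p = 0.0479, up to 0.152 without input replicate 6) and had a log2 fold change of 0.16 ± 0.25 SE (adjusted p = 0.736) in the Caper IP, and *croc* (log2 fold changes 0.19 and -0.46) and *fd96Ca* (log2 fold change 0.11, not tested with FLAG) were not called. The Snail family gene *esg* had 3.53, 4.95 and 5.83 CPM in the Caper inputs and 3.63, 11.4 and 15.7 CPM in the IPs. With FLAG it had 5.6, 3.37 and 9.14 and 14.8, 7.01 and 33.7 CPM, and the groups overlapped in both. It had a log2 fold change of 1.1 ± 0.53 SE (adjusted p = 0.219, or 0.0322 in the blocked fit, and 0.0102 without IP replicate 1) in the Caper IP and a log2 fold change of 1.63 ± 0.60 SE (adjusted p = 0.0631, or 9.68e-07 in the blocked fit, and 0.0122 without IP replicate 5) in the FLAG IP. The proneural gene *tap* was not called, with log2 fold changes of 1.05 and 0.37, and *ase* and *sna* did not pass the filter. Over all listed genes of these families, with introns or without, 10 bHLH genes were tested in the Caper IP with 1 higher and none lower, and 9 in the FLAG IP with 1 higher and 1 lower. Of the forkhead genes 12 and 10 were tested, with 1 and 4 higher, and of the Snail family 2 were tested in each IP, with none higher in the Caper IP and 1 higher in the FLAG IP. Lists without an intronless gene of the class gave 1 higher and 1 lower (Caper) and 3 higher and 1 lower (FLAG) of 7 Sox genes, 1 and 2 higher of 5 AP-1 and bZIP genes, 2 of 10 and 6 of 11 higher among other zinc finger factors, none (Caper) and 1 higher and 2 lower (FLAG) of 5 HSP70 cognates, and 2 higher and 3 lower (Caper) and 3 higher (FLAG) of 19 G protein coupled receptors. The shares over all genes tested were 6.33% higher and 7.53% lower (Caper) and 19.5% and 20.8% (FLAG). None of these lists was tested as a group.

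Among factors that bind mRNA, *btz*, a component of the exon junction complex, is covered by exons over its whole span although it has separate exons. It had 77.5, 80.1 and 80.1 CPM in the Caper inputs and 132, 117 and 105 CPM in the IPs, and 79.0, 85.2 and 80.2 against 133, 203 and 147 CPM with FLAG, with no overlap (log2 fold change 0.57 ± 0.10 SE, adjusted p = 0.0183, up to 0.112 without input replicate 2 for Caper and log2 fold change 0.98 ± 0.16 SE, adjusted p = 0.00291 for FLAG). Of the 18 genes found on the list of mRNA export and junction factors, 2 were higher and none lower in the Caper IP, beside 6.33% and 7.53% of all genes. In the FLAG IP 7 were higher and 3 lower, beside 19.5% and 20.8%. *CNBP*, a zinc finger protein that binds single-stranded nucleic acids, combined a high level with a rise. It is also one of the genes with separate exons. It had 572, 521 and 517 CPM in the Caper inputs and 1636, 912 and 819 CPM in the IPs, and 517, 670.1 and 462 and 1327, 2085 and 1252 CPM with FLAG. All IPs exceeded all inputs (log2 fold change 1.06 ± 0.27 SE, adjusted p = 0.0455, up to 0.181 without input replicate 2 for Caper and log2 fold change 1.5 ± 0.23 SE, adjusted p = 0.00248 for FLAG).

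*Hsp27*, a small heat shock protein made after heat, was higher in both IPs (log2 fold change 0.65 ± 0.13 SE, adjusted p = 0.0273, up to 0.14 without input replicate 2 for Caper and log2 fold change 0.78 ± 0.19 SE, adjusted p = 0.015, up to 0.059 without input replicate 6 for FLAG), at 8.11, 7.52 and 9.26 CPM in the Caper inputs and 14.4, 12.1 and 12.5 CPM in the IPs. Of 3 small heat shock and DnaJ genes, 1 was higher in the Caper IP, beside 6.33% of all genes. In the FLAG IP 1 was higher and 1 lower, beside 19.5% and 20.8%. Some intronless genes have near-identical copies, such as the amylase genes *Amy-p* and *Amy-d*. Pairs mapping to several places fall under the mapping quality of 20 that was counted, so their values are uncertain and none is given.

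**Figure D4:**
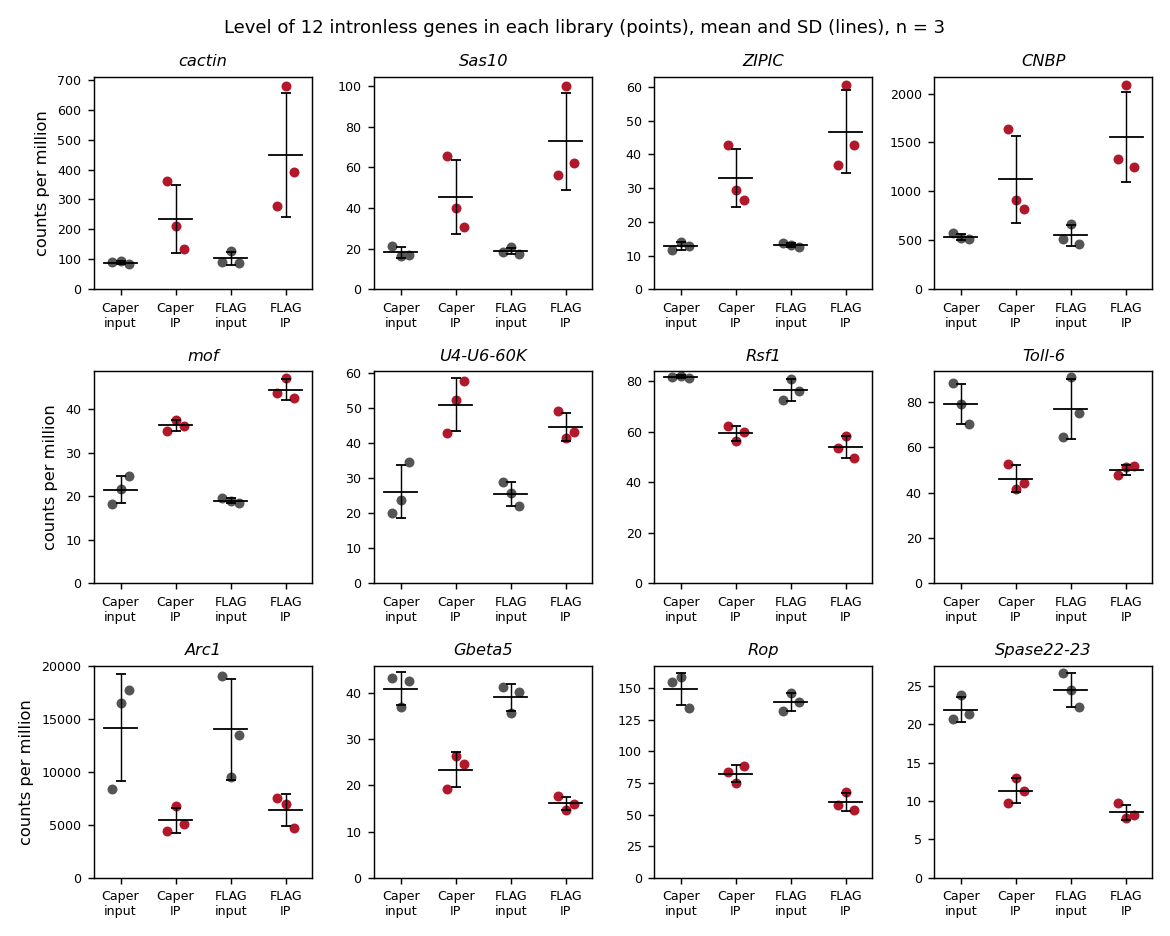
Level in CPM (vertical axes, from 0) of 12 intronless genes in the 3 inputs (grey) and 3 IPs (red) of each antibody, with mean and SD. The upper 6 genes lie higher in the IPs, such as *mof* at 35.1 to 37.6 against 18.3 to 24.6 with Caper, and the last 6 lie lower, such as *Rop* at 75.2 to 88.2 against 135 to 159.

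*Arc1* (FBgn0033926, chromosome 2R, 14357927 to 14360297, minus strand, 2371 exon bases) was the most abundant intronless gene and the one with the largest called decrease in the Caper IP. It encodes a Gag-like protein induced by neuronal activity, which forms capsids that carry its own mRNA between cells. Its level was 8345, 16526 and 17704 CPM in the Caper inputs and 4418, 6744 and 5086 CPM in the IPs. With FLAG it was 19049.8, 9539.7 and 13499 and 7508, 6969 and 4714 CPM. The inputs were spread widely, and no IP reached the lowest input of its antibody (log2 fold change -1.39 ± 0.32 SE, adjusted p = 0.0373, up to 0.161 without input replicate 2 for Caper and log2 fold change -1.13 ± 0.29 SE, adjusted p = 0.0184, up to 0.0582 without IP replicate 6 for FLAG). Fewer than 5 intron-containing genes were of like length and level, so *Arc1* has no neighbour value.

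*Rop* (FBgn0004574, chromosome 3L, 4136359 to 4138996, minus strand, 2638 exon bases), the Sec1/Munc18 protein of synaptic vesicle release, had 155, 159 and 135 CPM in the Caper inputs and 83.6, 75.2 and 88.2 CPM in the IPs. With FLAG it had 132, 146 and 139 and 57.9, 67.6 and 53.8 CPM. The groups stood well apart (log2 fold change -0.86 ± 0.10 SE, adjusted p = 0.00698, up to 0.0524 without input replicate 2 for Caper and log2 fold change -1.22 ± 0.11 SE, adjusted p = 0.00031 for FLAG), and *Rop* lay -0.97 and -1.26 from its intron-containing neighbours on the log2 scale.

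*Spase22-23* (FBgn0039172, chromosome 3R, 24228342 to 24230035, minus strand, 1694 exon bases), a subunit of the signal peptidase, had the largest called decrease in the FLAG IP. It went from 26.6, 24.5 and 22.2 CPM in the inputs to 9.67, 7.81 and 8.11 CPM (log2 fold change -1.52 ± 0.13 SE, adjusted p = 0.000295), and from 20.6, 23.8 and 21.4 to 9.67, 13 and 11.4 CPM with Caper (log2 fold change -0.95 ± 0.14 SE, adjusted p = 0.0113, up to 0.0788 without input replicate 2). It shares exon bases with another gene on its strand. *KdelR*, the receptor that returns proteins to the endoplasmic reticulum, was lower in both (log2 fold change -0.59 ± 0.13 SE, adjusted p = 0.0357, up to 0.14 without input replicate 2 for Caper and log2 fold change -0.90 ± 0.13 SE, adjusted p = 0.00191 for FLAG).

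*HPS1* and *Vps11*, which act in the making of lysosome-related organelles and in fusion with the lysosome, were lower in both IPs too. This held for *HPS1* in the Caper IP (log2 fold change -0.69 ± 0.11 SE, adjusted p = 0.0143, up to 0.0743 without input replicate 2) and the FLAG IP (log2 fold change -0.84 ± 0.11 SE, adjusted p = 0.00121). It held likewise for *Vps11* in the Caper IP (log2 fold change -0.55 ± 0.13 SE, adjusted p = 0.0424, up to 0.154 without input replicate 2) and the FLAG IP (log2 fold change -0.79 ± 0.20 SE, adjusted p = 0.0182, up to 0.0662 without input replicate 6). *Syx1A*, the syntaxin with which *Rop* works, was higher in the FLAG IP (log2 fold change 0.57 ± 0.10 SE, adjusted p = 0.00342) and had a log2 fold change of 0.25 ± 0.08 SE (adjusted p = 0.0968, or 0.0388 in the blocked fit) in the Caper IP. These genes belong to a list of 13 intronless genes of the secretory pathway and vesicle traffic. Of the 13, none was higher and 5 were lower in the Caper IP, beside 6.33% and 7.53% of all genes. In the FLAG IP 3 were higher and 7 lower, beside 19.5% and 20.8%. Their median log2 fold changes were -0.03 and -0.59, and the list was not tested as a group.

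*Gbeta5* (FBgn0030011, chromosome X, 8150731 to 8152275, minus strand, 1545 exon bases), a beta subunit of G proteins, had 43.4, 37.0 and 42.6 CPM in the Caper inputs and 19.2, 26.3 and 24.7 CPM in the IPs, and 41.4, 35.8 and 40.2 against 17.6, 14.7 and 16.1 CPM with FLAG, without overlap (log2 fold change -0.81 ± 0.14 SE, adjusted p = 0.0186, up to 0.0818 without input replicate 1 for Caper and log2 fold change -1.28 ± 0.11 SE, adjusted p = 0.00031 for FLAG). *Ktl*, the Kctd12-like gene, has separate exons and fell from 189.7, 175 and 152 to 119.8, 99.2 and 101 CPM with Caper (log2 fold change -0.69 ± 0.12 SE, adjusted p = 0.0171, up to 0.0872 without input replicate 2) and from 151, 183 and 152 to 104, 106 and 87.1 CPM with FLAG (log2 fold change -0.71 ± 0.12 SE, adjusted p = 0.00311). In the FLAG IP lower calls were also made for *Iris*, a gene derived from the envelope gene of a retrovirus (log2 fold change -1.27 ± 0.31 SE, adjusted p = 0.0159, up to 0.0553 without input replicate 5), for the neprilysin *Nep6* (log2 fold change -1.25 ± 0.13 SE, adjusted p = 0.000507) and for *CG4950* (log2 fold change -1.39 ± 0.19 SE, adjusted p = 0.00141). In the Caper IP *Iris* had a log2 fold change of -0.64 ± 0.67 SE (adjusted p = 0.59), *Nep6* a log2 fold change of -0.41 ± 0.35 SE (adjusted p = 0.498, and 0.0153 without IP replicate 1) and *CG4950* a log2 fold change of -0.72 ± 0.25 SE (adjusted p = 0.112, or 0.0342 in the blocked fit).

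Related intronless genes did not all have the same calls. Of 4 Toll receptors, *Toll-6* fell in both IPs, from 88.1, 79.0 and 70.4 to 52.7, 41.5 and 44.2 CPM with Caper (log2 fold change -0.78 ± 0.13 SE, adjusted p = 0.0159, up to 0.0824 without input replicate 2) and from 64.5, 90.9 and 74.9 to 47.6, 51.2 and 51.6 CPM with FLAG (log2 fold change -0.62 ± 0.13 SE, adjusted p = 0.00869). *18w* and *Tollo* were higher in the FLAG IP (log2 fold change 0.81 ± 0.24 SE, adjusted p = 0.0319, up to 0.115 without input replicate 6 and log2 fold change 0.72 ± 0.11 SE, adjusted p = 0.00283), with a log2 fold change of 0.57 ± 0.18 SE (adjusted p = 0.0891, or 0.00787 in the blocked fit) for *18w* and a log2 fold change of 0.31 ± 0.11 SE (adjusted p = 0.125, or 0.0392 in the blocked fit, and 0.0268 without IP replicate 1) for *Tollo* in the Caper IP, and *Toll-7* was called in neither. Of 16 neprilysin-like genes, metallopeptidases of which 15 were tested in each IP, none was called in the Caper IP, and 3 were higher and 3 lower in the FLAG IP. Of 6 aminoacyl-tRNA synthetase genes 1 was higher in the Caper IP and 1 lower in the FLAG IP. Of all genes tested, 6.33% were higher and 7.53% lower in the Caper IP, and 19.5% and 20.8% in the FLAG IP. These families were not tested as groups.

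Noncoding intronless genes had higher medians than coding ones, though not larger shares of higher calls. The 77 lncRNAs and antisense RNAs tested in the Caper IP had a median log2 fold change of 0.36 against 0.15 for 425 protein-coding genes, and in the FLAG IP 0.48 (74 genes) against 0.09 (388 genes). Intron-containing noncoding genes of 1500 bases or more had like medians, 0.37 and 0.52. Of the noncoding intronless genes 7 were called higher and 1 lower in the Caper IP (9.09% and 1.3%), and 16 higher and 4 lower in the FLAG IP (21.6% and 5.41%). Of the coding ones 11.8% and 22.7% were called higher, and of the intron-containing noncoding genes 9.09% and 28.9%, where 6.33% and 19.5% of all genes were.

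*lncRNA:CR45910* (FBgn0267570, chromosome 3R, 25586442 to 25589179, minus strand, 2738 exon bases) was called in both IPs. It had 3.62, 4.85 and 4.97 CPM in the Caper inputs and 9.81, 10.01 and 9.42 CPM in the IPs, with 4.91, 4.04 and 4.52 and 11.2, 8.99 and 12.4 CPM with FLAG. The IPs lay above the inputs and close together (log2 fold change 1.12 ± 0.16 SE, adjusted p = 0.0113, up to 0.0774 without input replicate 2 for Caper and log2 fold change 1.27 ± 0.17 SE, adjusted p = 0.00148 for FLAG). *lncRNA:CR45916* was also higher in both (log2 fold change 1.14 ± 0.28 SE, adjusted p = 0.0422, up to 0.169 without input replicate 2 and log2 fold change 1.31 ± 0.21 SE, adjusted p = 0.00269). *lncRNA:CR45949* was higher in the Caper IP (log2 fold change 1.14 ± 0.22 SE, adjusted p = 0.0219, up to 0.108 without input replicate 2) and had a log2 fold change of 1.19 ± 0.44 SE (adjusted p = 0.0636, or 9.69e-05 in the blocked fit, and 0.0436 without IP replicate 6) in the FLAG IP, and *asRNA:CR46089* was higher in the FLAG IP (log2 fold change 2.01 ± 0.54 SE, adjusted p = 0.0219, up to 0.0758 without input replicate 5). In the Caper IP edgeR did not call *asRNA:CR46089* (log2 fold change 0.60, adjusted p = 0.624).

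A pair of noncoding genes was lower in both IPs. *lncRNA:CR44922* (FBgn0266227, chromosome 3R, 4375084 to 4377600, plus strand, 2517 exon bases) had 79.9, 78.4 and 77.6 CPM in the Caper inputs and 48.4, 41.8 and 41.2 CPM in the IPs, and 71.7, 85.1 and 68.9 against 49.1, 45.7 and 47.9 CPM with FLAG. It was lower in both (log2 fold change -0.84 ± 0.09 SE, adjusted p = 0.00518 for Caper and log2 fold change -0.66 ± 0.10 SE, adjusted p = 0.00242 for FLAG). With any 1 of the 6 libraries of either antibody left out edgeR still called it, though with Caper only at the threshold (adjusted p = 0.049999 without input replicate 2). *hpRNA:CR46342*, a hairpin RNA of the kind that feeds small interfering RNAs, had 5.82, 3.17 and 4.97 CPM in the Caper inputs and 1.81, 2.02 and 2.09 CPM in the IPs (log2 fold change -1.24 ± 0.28 SE, adjusted p = 0.0346, up to 0.122 without input replicate 1 for Caper and log2 fold change -1.16 ± 0.22 SE, adjusted p = 0.00546 for FLAG). It shares exon bases with another gene on its strand.

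The most abundant intronless genes after *Arc1* behaved in several ways. *Lsp2*, a storage protein of the fat body, stood at 759 ± 246 CPM per kb (SD, n = 6 inputs) and its groups overlapped in both IPs, with a log2 fold change of -0.50 ± 0.27 SE (adjusted p = 0.265, or 0.0363 in the blocked fit) in the Caper IP and a log2 fold change of -0.90 ± 0.45 SE (adjusted p = 0.148, or 3.49e-07 in the blocked fit) in the FLAG IP. The 6 fat body markers, of which *Lsp2* is 1, summed to 2444 to 7615 CPM per kb in the inputs and 2059 to 12050.2 in the IPs. The part of fat body in these values was not tested. *CG15784* (709 ± 221 CPM per kb) was higher in the FLAG IP (log2 fold change 0.80 ± 0.26 SE, adjusted p = 0.0414, up to 0.109 without input replicate 6) and had a log2 fold change of 0.58 ± 0.33 SE (adjusted p = 0.298, or 0.0127 in the blocked fit) in the Caper IP, and *CG13928* (210.4 ± 19.0 CPM per kb) was higher in both (log2 fold change 0.53 ± 0.12 SE, adjusted p = 0.0389, up to 0.199 without input replicate 2 for Caper and log2 fold change 0.51 ± 0.11 SE, adjusted p = 0.00988, up to 0.0519 without input replicate 6 for FLAG).

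The gene *bic*, for the beta subunit of the nascent polypeptide-associated complex, is one of the genes with separate exons. It had 682, 679.6 and 768 CPM in the Caper inputs and 939, 988 and 1094 CPM in the IPs. It was higher in the Caper IP (log2 fold change 0.50 ± 0.10 SE, adjusted p = 0.0273, up to 0.167 without input replicate 2) and had a log2 fold change of 0.14 ± 0.12 SE (adjusted p = 0.365) in the FLAG IP. *Tctp*, a conserved growth-related protein, had a log2 fold change of 0.20 ± 0.13 SE (adjusted p = 0.342) in the Caper IP and a log2 fold change of -0.31 ± 0.13 SE (adjusted p = 0.0969, or 0.00316 in the blocked fit, and 0.017 without IP replicate 4) in the FLAG IP. *lncRNA:mimi*, with log2 fold changes of 0.24 and 0.05, was called in neither. The astrocyte marker *alrm*, which is intronless, had a log2 fold change of -0.10 ± 0.10 SE (adjusted p = 0.556) in the Caper IP and was lower in the FLAG IP (log2 fold change -0.71 ± 0.11 SE, adjusted p = 0.00221). The 7 glial markers together summed to 518 to 605 CPM per kb in the inputs and 532 to 795 in the IPs.

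The last comparison asked whether the 2 antibodies enriched intronless genes differently, which edgeR tested as the difference of the log2 fold changes over all 12 libraries. None of 509 intronless genes had more enrichment with FLAG, beside 0.817% of all genes, and 3 had less, beside 0.145%. *CG13631* had 96.3, 95.4 and 104 CPM in the Caper inputs and 124, 124 and 115.5 CPM in the IPs, but 95.8, 109.5 and 115.4 and 91.2, 78.0 and 86.5 CPM with FLAG. The Caper IPs lay above their inputs and the FLAG IPs below theirs. It was the only intronless gene with opposite calls in the fit without the block (log2 fold change 0.29 ± 0.08 SE, adjusted p = 0.0495, up to 0.264 without input replicate 2 for Caper and log2 fold change -0.33 ± 0.10 SE, adjusted p = 0.0383, up to 0.14 without input replicate 6 for FLAG), and the difference was -0.62 ± 0.12 SE (adjusted p = 0.0449). The Caper call was lost without any 1 of the 6 Caper libraries, and the FLAG call without any 1 of 4 of the 6 FLAG libraries.

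*CG2604* differed by -0.56 ± 0.11 SE (adjusted p = 0.0396) and *CG7872* by -0.51 ± 0.10 SE (adjusted p = 0.046). *CG2604*, which has separate exons, had log2 fold changes of 0.17 and -0.40, and *CG7872* of 0.38 and -0.14. These 3 adjusted p-values lie just under the threshold, and the number of such genes was 0 without any 1 of the Caper inputs 1, 2 or 3, of the Caper IPs 2 or 3, of the FLAG inputs, or of the FLAG IPs 5 or 6, 12 without Caper IP 1 and 2 without FLAG IP 4. With the block 17 genes had more and 34 less enrichment with FLAG, beside 6.62% and 5.44% of all genes.

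Between the FLAG and the Caper inputs edgeR called none of 447 intronless genes, and 19 had an unadjusted p under the threshold. Over all 9944 genes none was called and 176 had such an unadjusted p, 1.77%.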

How the data were processed

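RIP-seq was measured in 12 libraries of adult heads: 3 Caper IPs, 3 FLAG IPs and their 6 inputs. The authors trimmed the reads with fastp 0.20.1, checked them with FastQC 0.11.8, mapped them with STAR 2.7.6a to dmel_r6.36 and counted read pairs on exons, strand-specifically and at a mapping quality of at least 20, with featureCounts of Subread 2.0.1. They deposited raw counts per gene, not normalized, with exon positions and lengths. Libraries were made from total RNA with probes against ribosomal RNA. Totals ran from 9615414 to 34264177, deep enough that counting error matters mainly for genes with few counts.

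Symbols and gene types come from the RefSeq table of Release 6 (757 of the 781 genes matched 1 RefSeq gene at the same position). Each antibody was fitted on its own, 3 IPs against 3 inputs, in edgeR 4.0.16 under R 4.3.3 with limma 3.58.1: TMM, filterByExpr (minimum count 10, minimum total 15), glmQLFit and glmQLFTest, two-sided, Benjamini-Hochberg over all genes tested, called at 0.05. The SE is the absolute log2 fold change over the square root of its F statistic. CPM use TMM library sizes, and values by pair a prior count of 2. Scripts were tested on simulated data. Neighbours of a gene are at least 5 tested intron-containing genes of any gene type with length and mean input CPM within 25%. With 3 against 3, an exact permutation test cannot go under 0.1, so none was used.

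Named genes are, per antibody and direction, the 6 largest called changes averaging 50 counts or more whose 3 pairs share a sign, the 8 with the highest input CPM per kb, those that differ between antibodies, and tested genes on lists of factor families, nucleolar and export genes. *U4-U6-60K*, *noi*, *CG7564*, *Rsf1*, *Toll-6*, *18w*, *Tollo*, *Syx1A*, *KdelR*, *HPS1*, *Vps11*, *mof*, *Hsp27*, *Ktl* and *alrm* were added after their values were seen. The class of genes and all lists were chosen with earlier results of these data known. The lists of Sox factors, AP-1 and bZIP factors, other zinc finger factors, HSP70 cognates and G protein coupled receptors held no intronless gene of the class.

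The numbers in the sample titles join an IP to its input. After the group means were removed, the log CPM of same-numbered libraries were correlated in every pair, from 0.152 to 0.770, although the Caper IP of replicate 2, the lowest, correlated more with input 3 (0.565) than with its own input. With the block, edgeR's estimate of variation between replicates (BCV) was 0.106 in place of 0.247 for Caper and 0.0731 in place of 0.176 for FLAG. Alternatives were DESeq2 1.42.0, RLE, library size only, other filters, the block, each library left out, all 12 libraries together, other length limits, coding genes only and other neighbours, and, chosen after seeing the data, genes without separate exons and genes sharing no exon bases.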

Additional observations from a re-analysis of the deposited data

Results flagged for a closer look

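*CG2604*, *CG13631* and *CG7872* stood out because their enrichment differed between the antibodies in the edgeR test of the difference, by -0.56, -0.62 and -0.51 on the log2 scale for FLAG minus Caper. In each, the FLAG IPs lay below their inputs and the Caper IPs above theirs in every library. With the replicate block the adjusted p-values were 0.00898, 0.0125 and 0.0187.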

How the results depend on the processing

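With the replicate block the counts of calls were 131 higher and 24 lower in the Caper IP, 100 lower in the FLAG IP, 95 higher and 24 lower in both, and 51 with a difference between antibodies. Library size only gave 113 higher with Caper and 71 higher in both. From 2000 bases the counts were 34 and 9 (Caper higher and lower), 32 (FLAG lower) and 8 (lower in both), where fewer genes enter, and from 1000 bases 118 were lower with FLAG. Genes differing between antibodies numbered 16 with DESeq2, 1 with RLE and 0 with no filter. With 1 library left out the counts ranged over 1 to 90 higher and 1 to 26 lower (Caper), 69 to 97 and 45 to 64 (FLAG), 1 to 56 and 1 to 15 (both) and 0 to 12 (difference).

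The Caper median was 0.32 with library size only, which shifts all genes, and 0.19 with no filter, with a range of 0.14 to 0.21 over libraries left out. For FLAG it was 0.22 and 0.16, 0.21 from 2000 bases, 0.094 in coding genes and 0.16 without separate exons, with a range of 0.078 to 0.17. The Caper neighbour difference stayed positive, at 0.071 with at least 10 counts in every library, 0.0081 with no filter, 0.043 with the replicate block, 0.0304 in coding genes, 0.046 and 0.069 with neighbours within 1.1-fold and 1.5-fold, 0.074 with the level of the other inputs and 0.027 to 0.11 with a library left out. The FLAG one turned to -0.0037 with all 12 libraries, -0.0032 with at least 10 counts, -0.024 with no filter, -0.0012 from 1000 bases, -0.00777 in coding genes and -0.019 with neighbours of short span, and was 0.045 from 2000 bases, 0.038 within 1.5-fold and -0.0042 to 0.045 with a library left out, below 0 without FLAG input 5.

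Uncalled log2 fold changes turned sign with a library left out for *lncRNA:mimi* (-0.0504 to 0.21) and *tap* (-0.12 to 0.97) with FLAG, and *croc* (-0.10 to 0.41), *fkh* (-0.17 to 0.31) and *fd96Ca* (-0.086 to 0.24) with Caper. For *alrm* with Caper the value was 0.051 with library size only. Of the named genes' values under alternatives, 1124 kept direction and side of the threshold, 166 lost a call, 34 gained one and 9 changed sign. Among the named genes the block changed no other call than those given beside them. The causes were not tested. Genes without an intron in RefSeq could not be taken as an alternative, since the table used gives no exons. At this depth 272 of the 781 genes had too few counts to be tested with either antibody.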
